A study of Mus musculus with 10 samples.

Results

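Regulatory T cells of metastatic mouse liver were divided by their T cell receptor into those that shared it with another regulatory barcode of the same liver and those that did not. A regulatory barcode (a droplet taken as 1 cell) had at least 1 unique molecule (UMI) of Cd4, none of Cd8a, at least 1 of Foxp3, and a contig of both the alpha (TRA) and the beta (TRB) receptor chain. Of 28039 barcodes in the 5 livers, 5378 had both chains and 577 met the rule. Their receptors formed 375 clonotypes, each defined within a liver by the V gene, J gene and nucleotide CDR3 of the TRA and the TRB contig with the most UMIs. A clonotype of 2 or more regulatory barcodes was called expanded (72 clonotypes, 274 barcodes) and a clonotype of 1 was called single (303 clonotypes and barcodes).

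All 5 livers carried metastases of colorectal cancer origin and were profiled by 10x single-cell RNA sequencing, and the T cell receptors of the same droplets were sequenced as V(D)J libraries. Livers Control 11 and Control 25 came from mice given a control vector (LV in the design text), IFNa 18 and IFNa 23 from mice given the IFNa vector, and Combination 22 from a mouse given IFNa together with an antibody to CTLA-4. Cells were taken by viability alone, with no antibody staining. The strain, age, tumour line and vector promoter are not given in the sources used here, and the labels leave unsaid whether the livers are from different mice. The p-values then reflect the spread among these 5 samples only, part of which may be technical. The combination is 1 liver and was not tested on its own. Per-liver values are given below in the order Control 11, Control 25, IFNa 18, IFNa 23, Combination 22.

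Regulatory T cells restrain other immune cells, and the transcription factor Foxp3 defines them. They bind much of the local interleukin 2 through the high-affinity receptor chain encoded by Il2ra, and carry the inhibitory receptor CTLA-4. Each developing T cell joins V, (D) and J segments with untemplated bases at the joins, so that an identical nucleotide CDR3 in both chains marks cells that very probably descend from 1 cell. In tissues and tumours, regulatory T cells often lose the lymph node homing programme (Ccr7, Klf2, Tcf7) as they take on an effector state.

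The regulatory barcodes carried the defining transcripts. Summed over each liver, Ikzf2 (Helios, a transcription factor of regulatory T cells) lay at 1176, 1173, 1254, 1068 and 1051 CPM (the gene's UMIs scaled to a fixed total of summed UMIs). In the CD4 barcodes with both chains and no Foxp3 UMI, called Foxp3-zero here, it lay at 163, 375, 303, 218 and 158 CPM. Il2ra was at 649, 1068, 598, 558 and 940 CPM in regulatory barcodes, against 70.9, 67.7, 97.7, 110 and 56.7 in Foxp3-zero barcodes. The groups did not overlap for either gene, nor for Ctla4, which ran from 1273 to 1656 CPM against 234 to 447. A Foxp3 UMI was found in 53.1, 52.2, 41.1, 46.9 and 19.5% of paired CD4 barcodes (median depth 5920 to 7806.5 UMIs), against 1.79, 8.57, 0.806, 4.52 and 4.68% of paired CD8 barcodes (median 7758 to 10721), which set the level reached in cells that mostly lack the gene. At the edge of the rule, 89 of the 577 barcodes had a single Foxp3 UMI. The libraries held 10464216 to 69856071 UMIs over 863 to 9605 barcodes, with Control 25 the smallest. Summed over all pairs of libraries, 402 barcode sequences occurred in both libraries of a pair. In no pair was such a barcode regulatory in both libraries.

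The largest clonotype of each liver but Control 25, where no clonotype passed 2 barcodes, is shown by its CDR3, with a second from IFNa 18, because each is the largest expansion of its liver or, for that second one, the next largest in the data. The capitals mark the first and last codon of the CDR3, the conserved cysteine and phenylalanine codons that bound it. The beta V gene printed as TRBV12-2+TRBV13-2 is a joint name used by the deposited contig tables. Control 11 clonotype 1 had 12 barcodes, IFNa 18 clonotypes 1 and 2 had 23 and 18, IFNa 23 clonotype 1 had 11 and Combination 22 clonotype 1 had 8.
Control 11 clonotype 1, TRAV8-1/TRAJ16: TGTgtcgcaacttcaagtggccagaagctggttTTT
Control 11 clonotype 1, TRBV12-2+TRBV13-2/TRBJ2-7: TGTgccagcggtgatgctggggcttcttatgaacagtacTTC
IFNa 18 clonotype 1, TRAV14N-3/TRAJ56: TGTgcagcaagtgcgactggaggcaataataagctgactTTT
IFNa 18 clonotype 1, TRBV12-2+TRBV13-2/TRBJ2-2: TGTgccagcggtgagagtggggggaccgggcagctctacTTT
IFNa 18 clonotype 2, TRAV6-6/TRAJ6: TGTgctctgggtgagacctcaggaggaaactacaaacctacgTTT
IFNa 18 clonotype 2, TRBV16/TRBJ2-7: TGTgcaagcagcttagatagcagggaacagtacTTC
IFNa 23 clonotype 1, TRAV12D-2/TRAJ15: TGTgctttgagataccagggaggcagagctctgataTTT
IFNa 23 clonotype 1, TRBV16/TRBJ2-7: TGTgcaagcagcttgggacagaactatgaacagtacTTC
Combination 22 clonotype 1, TRAV8-1/TRAJ9: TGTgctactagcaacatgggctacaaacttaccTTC
Combination 22 clonotype 1, TRBV12-2+TRBV13-2/TRBJ2-7: TGTgccagcggtgagacaggggggtacTTC

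No clonotype was regulatory in 2 livers by its nucleotides. Over all barcodes with both chains, 1 clonotype occurred in both IFNa 23 and Combination 22, and whether it was regulatory in either was not checked. At the level of the protein, 6 beta chains (same V gene, J gene and deposited amino acid CDR3) occurred in 2 or more livers, on 22 clonotypes of which 8 were expanded. The most widespread, TRBV19 joined to TRBJ2-7, was found in 4 livers and was written in 4 nucleotide versions, shown here because they encode 1 amino acid CDR3 with different bases. The capitals mark the bases that differ among the versions.
Control 11 clonotypes 17 and 28, and Combination 22 clonotype 23: tgtgccagcagTAgGtatgaacagtacttc
Control 25 clonotype 3: tgtgccagcagTCgGtatgaacagtacttc
IFNa 23 clonotype 18: tgtgccagcagTAgAtatgaacagtacttc
Combination 22 clonotypes 59 and 85: tgtgccagcagCCgAtatgaacagtacttc

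This beta chain had a CDR3 of 30 bases. Control 25 clonotype 3, Control 11 clonotype 17 and IFNa 23 clonotype 18 had 2 barcodes each and were expanded, and the other 4 clonotypes were single. In 2 of the 6 beta families the alpha chain was shared between livers as well. Control 25 clonotype 3 and Combination 22 clonotype 85 both carried TRAV9-1/TRAJ27 with the CDR3 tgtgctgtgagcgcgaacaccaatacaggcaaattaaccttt, identical in every base. IFNa 18 clonotype 20 and Combination 22 clonotype 86 both carried TRAV10/TRAJ45 with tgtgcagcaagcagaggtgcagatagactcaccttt. Their TRBV16/TRBJ1-1 beta chains differed at the base in capitals.
IFNa 18 clonotype 20: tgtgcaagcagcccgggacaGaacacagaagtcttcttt
Combination 22 clonotype 86: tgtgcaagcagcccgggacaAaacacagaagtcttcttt

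Among the expanded clonotypes, 36 had 2 barcodes, 36 had 3 or more and 13 had 6 or more. Expanded clonotypes numbered 22, 4, 11, 25 and 10 per liver and single clonotypes 72, 16, 49, 50 and 116. They held 82, 8, 67, 86 and 31 of the 154, 24, 116, 136 and 147 regulatory barcodes. The share of barcodes in expanded clonotypes was 53.2% in Control 11 (exact Clopper-Pearson 95% interval 45.0 to 61.3), 33.3% in Control 25 (15.6 to 55.3), 57.8% in IFNa 18 (48.2 to 66.9), 63.2% in IFNa 23 (54.5 to 71.3) and 21.1% in Combination 22 (14.8 to 28.6). These intervals cover counting error only. The combination was the lowest, and the interval of Control 25 overlapped those of all the others. The largest clonotype took 7.79, 8.33, 19.8, 8.09 and 5.44% of the regulatory barcodes.

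Foxp3-zero CD4 barcodes of the same livers numbered 136, 22, 166, 154 and 608. Their own expanded share was 5.88, 9.09, 19.3, 40.9 and 49.2%. Regulatory barcodes were thus the more expanded population in the Control and IFNa livers, by 47.4, 24.2, 38.5 and 22.3 percentage points, and the less expanded in Combination 22, at −28.1 points. A share of this kind grows with the number of barcodes sampled. At 22 barcodes drawn from each population, the smallest number in any, the expected share of regulatory barcodes in a repeated clonotype was 23.3, 30.4, 42.9, 26.2 and 7.29%, against 0.915, 9.09, 4.05, 20.2 and 8.38% for Foxp3-zero barcodes. At that common number the difference was 22.4, 21.3, 38.8, 6.01 and −1.09 points, and the regulatory share of Combination 22 was the lowest of the 5 livers by both measures.

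**Figure D1:**
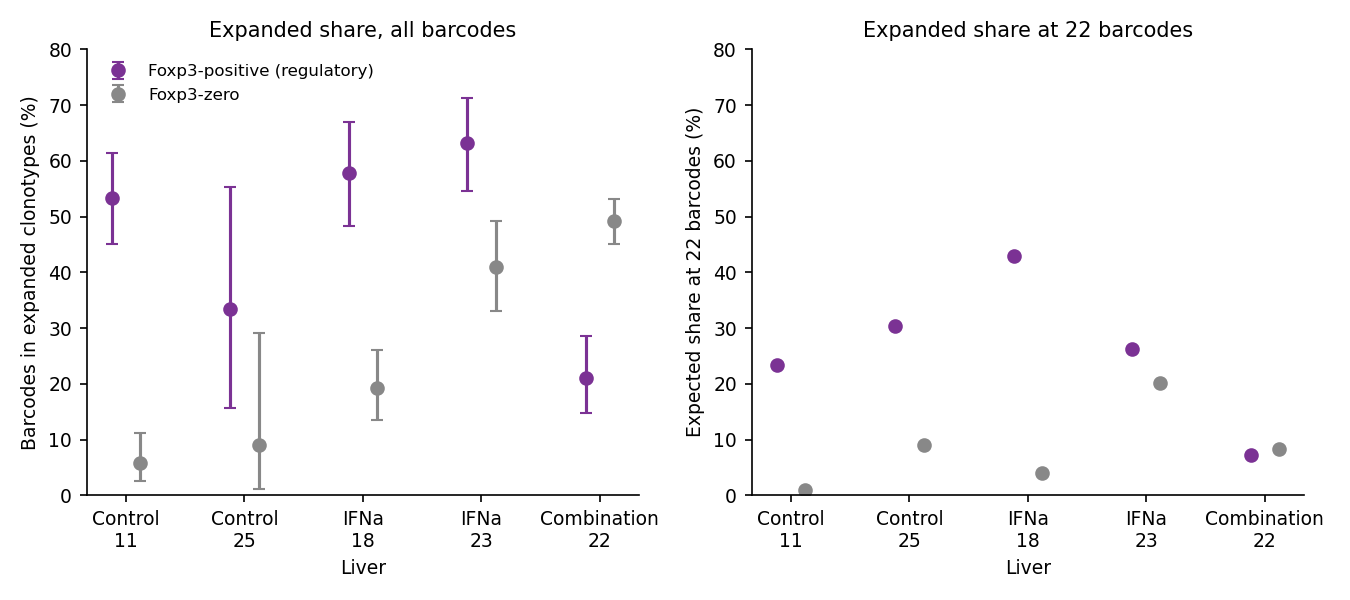
Percentage of CD4 barcodes in expanded clonotypes per liver, for regulatory (purple) and Foxp3-zero (grey) barcodes; bars on the left are exact 95% binomial intervals, and the right panel gives the share expected at 22 barcodes of each population. Regulatory barcodes sit above Foxp3-zero barcodes in 4 livers and below them in Combination 22, where the right panel shows 7.29 against 8.38%.

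Between treatments the expanded share did not differ beyond its spread. It was 43.3% ± 14.1 (SD, n = 2) in Control livers and 47.4% ± 22.9 (SD, n = 3) in the 3 livers given IFNa, alone or with anti-CTLA-4, a difference of 4.07 points (exact two-sided permutation test, p = 0.9). The share of all pairs of regulatory barcodes that had the same clonotype, whose expectation is independent of the number sampled, was 1.63, 1.45, 6.55, 1.73 and 0.447%. The highest came from IFNa 18, where clonotypes 1 and 2 held 23 and 18 of 116 barcodes, and the lowest from Combination 22. The 2 groups differed by 1.37 points in this share (exact two-sided permutation test, p = 0.8). With 2 livers against 3 the smallest p this test allows is 0.1. The sign of the difference in expanded share turned when Control 25, IFNa 18 or IFNa 23 was left out (−5.89, −1.13 and −3.87 points). Without Combination 22 both IFNa livers lay above both Control livers, by 17.2 points (exact two-sided permutation test, p = 0.333, the smallest that 2 against 2 allows). That order did not hold at 22 barcodes, where IFNa 23 (26.2%) lay below Control 25 (30.4%).

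TRBV12-2+TRBV13-2 was the most used beta V gene, on 15 of 72 expanded (20.8%) and 40 of 303 single clonotypes (13.2%). TRBV1 was on 11 expanded (15.3%) and 16 single clonotypes (5.28%), TRBV19 on 9 (12.5%) and 24 (7.92%), and TRBV16 on 7 (9.72%) and 32 (10.6%). TRBV3 was on 2 expanded (2.78%) and 22 single clonotypes (7.26%). TRBV13-3 was on none of 72 expanded clonotypes, which allows a share of up to 4.17% for counting error only, and on 25 single clonotypes (8.25%) in 4 livers. These shares are descriptions without a test, since clonotypes of 1 liver are not replicates. The mean TRB CDR3 was 40.1, 38.3, 41.2, 40.2 and 41.1 bases long in expanded clonotypes against 41.0, 41.4, 41.4, 40.9 and 41.0 in single ones, shorter in 4 of 5 livers by a mean of 0.997 bases (SD 1.28, exact two-sided sign-flip permutation test p = 0.125, the smallest possible being 0.0625). The TRA CDR3 differed by 0.24 bases (SD 1.19, exact sign-flip permutation test p = 0.875). Within a liver, 8 beta chains occurred with more than 1 alpha chain, on 16 clonotypes (7 of them single) with 41 barcodes.

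For the comparison of expression, UMIs of all expanded barcodes and of all single barcodes were summed within each liver, and the liver was kept as a block in edgeR's quasi-likelihood test. No gene of 7685 tested passed an adjusted p of 0.05 in either direction (0% higher, 0% lower). At an unadjusted p under 0.05, 537 genes differed, 240 higher (3.12%) and 297 lower (3.86%) in expanded clonotypes. Genes higher in every one of the 5 livers made up 4.52% of those tested, and genes lower in every liver 4.63%. The 8 genes with the smallest adjusted p (0.115) included Slamf6, Klf2, Ms4a4b, Pde2a and Nrp1, all lower in expanded clonotypes in 5 of 5 livers. Without Control 25, whose expanded arm had 8 barcodes, 11 genes passed (1 higher, 10 lower), and without Control 11 1 gene passed, Klf2. DESeq2 called 2 genes, Klf2 and Ms4a4b. With barcodes of high doublet score removed 23 passed (2 higher, 21 lower), and with expanded defined as 3 or more barcodes 17 passed (4 higher, 13 lower). The directions of the named genes below are therefore values, and none is called changed.

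Several genes of resting and recirculating T cells were lower in expanded clonotypes. Of 21 genes listed as resting or central regulatory T cell genes, 15 were tested, and 10 were lower and 1 higher at an unadjusted p under 0.05. The median log2 fold change was −0.60 against −0.000958 over all genes. At that threshold 3.86% of all genes were lower and 3.12% higher, the shares to set beside the list counts of the expanded comparison below. Klf2, Bach2, Il7r, Foxp1, Klf3 and Txnip were among those lower in all 5 livers. Klf2, a transcription factor that maintains the exit receptors of recirculating T cells, was at 180, 134, 99.1, 29.2 and 99.7 CPM in expanded and 245, 353, 330, 101 and 217 CPM in single barcodes. Its level varied severalfold between livers, yet each liver's expanded arm lay below its own single arm (log2 fold change −1.24, SE 0.19). Lef1, a transcription factor of naive T cells, was lower in 4 livers and higher in Control 25 (−0.98, adjusted p = 0.351, edgeR's quasi-likelihood test). Il7r, the receptor for the survival cytokine interleukin 7, was lower in 5 of 5 livers (−0.57). Ccr7, the lymph node homing receptor, had no common direction, at 57.7, 70.6, 151, 230 and 42.4 CPM in expanded and 150, 9.82, 62.4, 21.2 and 130 CPM in single barcodes, higher in 3 of 5 livers.

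Receptors for chemokines and for adhesion leaned the same way. Of 22 genes, 20 were tested, with 7 lower and none higher at an unadjusted p under 0.05 and a median of −0.31, and Ccr4, Ccr9, Cxcr4, S1pr4 and Itgb1 were among those lower in all 5 livers. Ccr4, a receptor that guides regulatory T cells to skin and inflamed tissue, was at 28.3, 0, 16.5, 18.5 and 69.8 CPM in expanded and 80.8, 49.1, 73.4, 44.2 and 88.3 CPM in single barcodes. The arms overlapped between livers only through Combination 22 (−1.30, SE 0.29, adjusted p = 0.350, edgeR's quasi-likelihood test). Itgb1, the integrin beta 1 chain, had a log2 fold change of −0.84 and S1pr4, a sphingosine phosphate receptor, of −0.71.

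The gene with the smallest p was Slamf6 (2.74e-05 unadjusted). Slamf6, a SLAM-family receptor that T cells carry before terminal differentiation, was at 24.7, 21.2, 20.6, 37.8 and 42.4 CPM in expanded and 74.8, 29.5, 84.4, 72.4 and 106 CPM in single barcodes (−1.38, SE 0.20). Each liver's expanded arm was the lower, with the smallest gap in Control 25. Sh2d1a, the adaptor of SLAM receptors, had a log2 fold change of −0.96 and Slamf1 of −0.70, both lower in 5 of 5 livers with an adjusted p of 0.351 (edgeR's quasi-likelihood test). Another SLAM-family gene, Cd244a, was higher in 4 of 5 livers, at levels of 7.47 to 37.8 CPM in expanded and 4.27 to 29.5 CPM in single barcodes. Ms4a4b, a membrane protein of T cells, was at 73.1, 49.4, 479, 241 and 466 CPM against 230, 118, 769, 433 and 734 CPM. Its level differed more between livers than between the arms of any liver, and the arms still kept 1 order in all 5 (−0.94, SE 0.16). Pde2a, which breaks down cyclic nucleotides, had a value of −1.48.

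Among 13 listed tissue-repair genes, 2 were lower at an unadjusted p under 0.05 (3.86% over all genes), none was higher and the median was −0.22. Il1rl1, which encodes the interleukin 33 receptor of tissue regulatory T cells, was at 101, 106, 24.8, 48.5 and 34.9 CPM in expanded and 166, 152, 202, 145 and 59.1 CPM in single barcodes (−1.37, SE 0.29, adjusted p = 0.295, edgeR's quasi-likelihood test). The largest gap was in IFNa 18 and the smallest in the Control livers and Combination 22. Il18r1, the interleukin 18 receptor and the other of the 2, was lower in 5 of 5 livers (−0.94, adjusted p = 0.295 by the same edgeR test).

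The defining regulatory T cell transcripts differed little between the arms. Of 17 tested identity genes 1 was lower at an unadjusted p under 0.05, near the 3.86% over all genes. None was higher and the median was 0.01. That gene, Nrp1 (neuropilin 1, a surface receptor of regulatory T cells that arise in the thymus), was at 54.2, 21.2, 50.9, 49.2 and 59.8 CPM in expanded and 117, 58.9, 80.7, 81.3 and 115 CPM in single barcodes (−0.89, SE 0.16). The log2 fold changes of Ikzf2, Il2ra and Ctla4 were 0.06 (SE 0.11), 0.01 (SE 0.12) and 0.12 (SE 0.10), and each was higher in 3 livers and lower in 2. The sign of Il2ra and Ikzf2 turned under some alternatives. Foxp3, which the rule used, was at 468, 395, 376, 362 and 593 CPM in expanded and 515, 565, 490, 474 and 582 CPM in single barcodes.

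**Figure D2:**
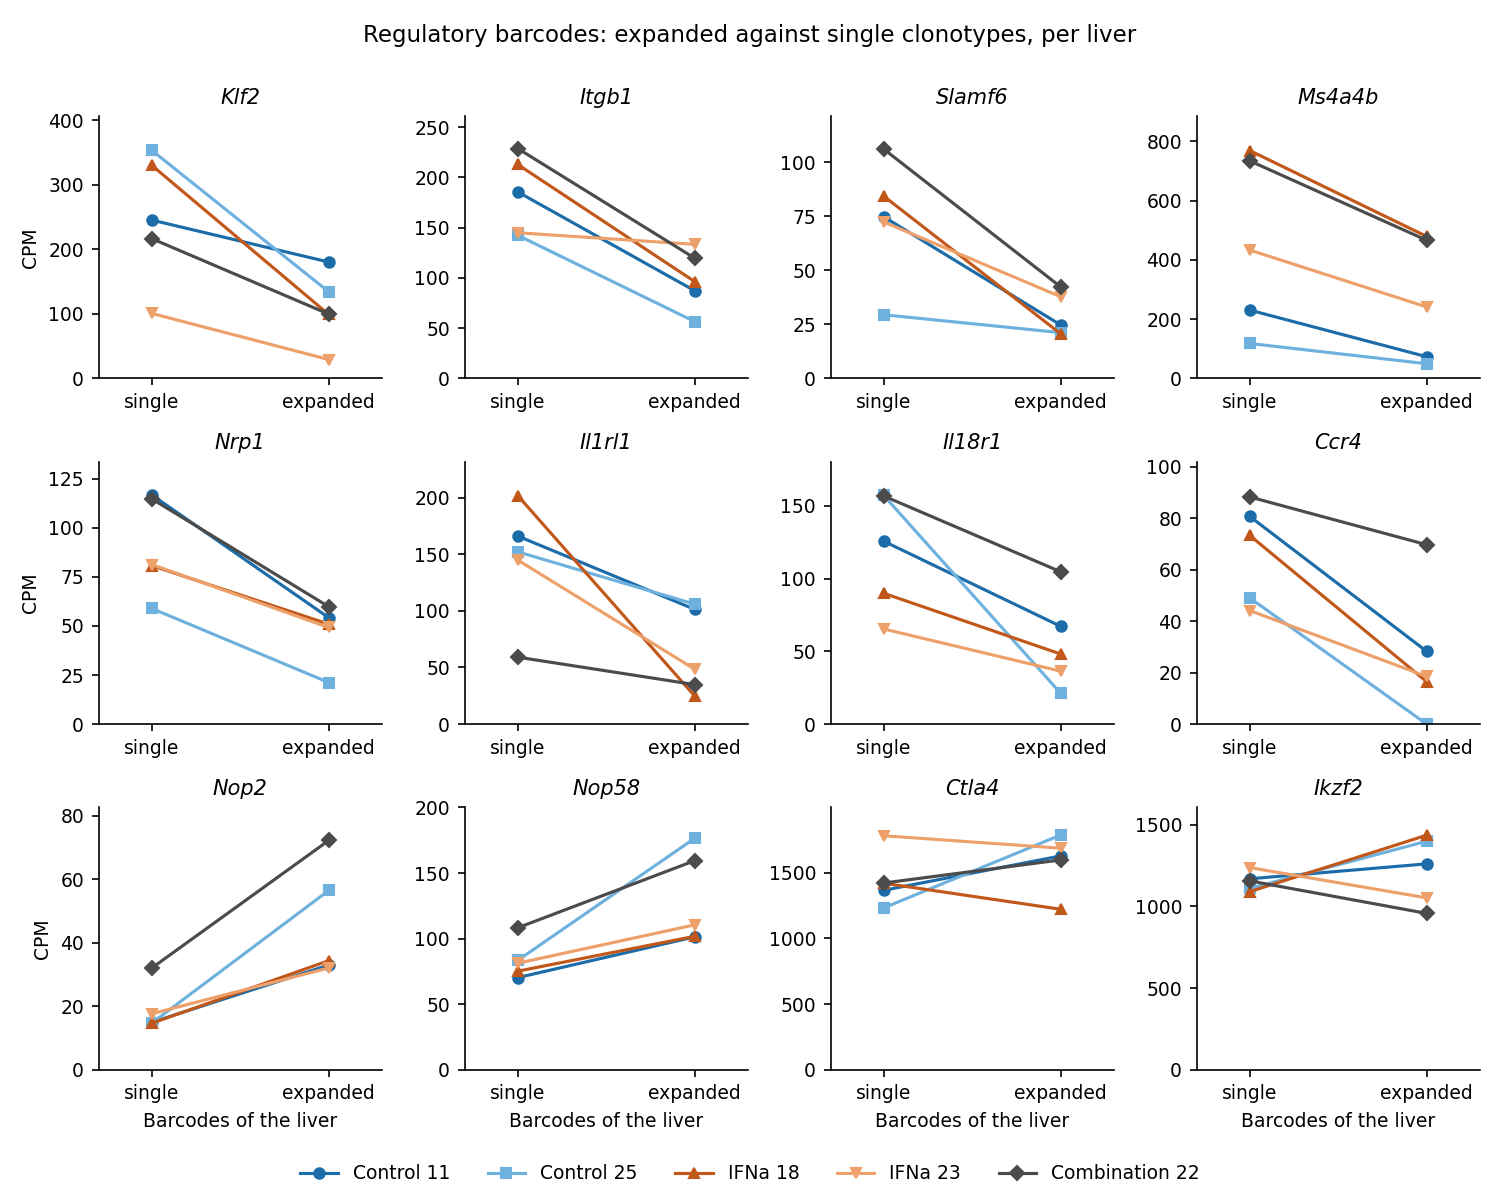
CPM of 12 genes in single and expanded regulatory barcodes, 1 line per liver joining its 2 summed arms. Expanded barcodes are lower in all 5 livers for the first 8 genes, higher in all 5 for Nop2 and Nop58, and mixed for Ctla4 and Ikzf2; no gene passed an adjusted p of 0.05.

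Higher values in every liver were seen for genes of ribosome production. Nop2, a nucleolar RNA methyltransferase, was at 33.0, 56.5, 34.4, 32.1 and 72.3 CPM in expanded and 15, 14.7, 14.7, 17.7 and 32.1 CPM in single barcodes (1.17, SE 0.22, adjusted p = 0.182, edgeR's quasi-likelihood test). Every expanded arm lay at or above the highest single arm. Pes1 and Nop58, also of the nucleolus, and Mrpl12, of the mitochondrial ribosome, had log2 fold changes of 0.67, 0.56 and 0.73. Gem, a small GTPase, and Impa2, an inositol monophosphatase, had 0.80 and 0.61. These genes were named because they had the smallest p among genes higher in all livers, not from a list of ribosome genes.

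Effector, inhibitory and proliferation genes gave mixed or small values. Of 37 effector regulatory T cell genes 1 was higher and 4 lower at an unadjusted p under 0.05 (median −0.08), against 3.12 and 3.86% over all genes. Klrg1, an inhibitory receptor of highly differentiated regulatory T cells, had a log2 fold change of −0.11 (SE 0.17). Among 12 tested inhibitory receptor genes 1, Tigit, was higher (0.41, SE 0.17, higher in 4 of 5 livers), and the median was 0.14. Nkg7, a granule protein of cytotoxic cells, was at 438, 120, 673, 660 and 202 CPM in expanded and 153, 49.1, 246, 452 and 266 CPM in single barcodes, higher in all but Combination 22 (0.83, SE 0.25, adjusted p = 0.484, edgeR's quasi-likelihood test). All 17 proliferation genes had a positive value (median 0.21, against −0.000958 over all genes), but none reached an unadjusted p under 0.05 and none was higher in every liver. In Control 25, Ccna2 was at 212 CPM in expanded and 4.91 CPM in single barcodes. It was lower in expanded barcodes of Control 11 and IFNa 18. Mki67, a protein of dividing cells, was at 123, 918, 228, 326 and 135 CPM in expanded and 205, 63.8, 323, 261 and 342 CPM in single barcodes. It was higher in Control 25 and IFNa 23 alone, and its value moved from 0.03 to −0.50 without Control 25.

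Genes that respond to type I interferon, the cytokine delivered by the IFNa vector, leaned lower in expanded clonotypes. Of 39 tested genes 6 were lower and 1 higher at an unadjusted p under 0.05 (3.86 and 3.12% over all genes), with a median of −0.20. Isg15, Ifi203, Ifi206, Ifi213, Zbp1 and Xaf1 were lower in 5 of 5 livers, and Isg20 was higher in 5 of 5. Zbp1, a sensor of nucleic acids, had a log2 fold change of −0.33 (SE 0.12). Of 16 tested genes induced by receptor signals 4 were lower and none higher (median −0.15), among them Nfkbid, a nuclear regulator of NF-kappaB (−0.62). Of 15 costimulatory genes 4 were lower and none higher, and of 14 MHC class I genes 1 was lower and none higher (median −0.13). For a list of 14 genes, a count of 1 is close to the share over all genes.

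Depth and other transcripts moved with these arms. The median UMI count per barcode was 7804, 12391, 7875, 14019.5 and 11740 in expanded and 6431, 8343, 8246, 8759 and 9458 in single barcodes, higher in expanded clonotypes in 4 of 5 livers. Barcodes scored as likely doublets numbered 9, 0, 6, 16 and 4 among expanded and 4, 1, 7, 4 and 14 among single barcodes. The 18 genes induced by tissue dissociation summed to 5018 to 8275 CPM in expanded and 7111 to 10579 CPM in single barcodes, with 2 higher, 5 lower and a median of −0.24. The 8 myeloid markers summed to 219 to 3498 against 1923 to 3055 CPM. C1qa, C1qb and C1qc were at 0 in both arms of Control 25 and in the expanded arm of Combination 22. The 6 hepatocyte markers summed to 359 CPM in the expanded and 3.45 CPM in the single barcodes of IFNa 23, and to at most 7.14 CPM in the other arms. The 7 B and plasma cell markers summed to 25.4 to 971 against 24.2 to 116 CPM, the 971 in Combination 22. The part of depth, doublets and these transcripts in the differences between arms was not tested beyond the removal of scored doublets.

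The effect of expansion was compared between the 3 IFNa livers and the 2 Control livers as an interaction. No gene passed an adjusted p of 0.05 in edgeR's quasi-likelihood test (0%), and 202 of 7685 (2.63%) had an unadjusted p under 0.05. That count rested on the livers included: without Control 11 57 genes passed, without Control 25 3 and without Combination 22 1. With 1 Control liver left in the fit, its arms are assumed to vary like those of the others.

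The largest expanded clonotypes differed from each other in effector genes. Described here are the 3 largest clonotypes of each liver but Control 25, 12 in all with at least 3 barcodes, each summed over its barcodes. Clonotypes of 1 liver share that liver, so the values have no test, and the exact Poisson intervals cover counting error only. Klrg1 ran from 18 CPM in Combination 22 clonotype 1 (2 UMIs, interval 2.18 to 65.1) to 1162 CPM in Control 11 clonotype 2 (90 UMIs, 935 to 1429). Within IFNa 18 it was 168 CPM in clonotype 1 (118 to 233) and 648 CPM in clonotype 2 (533 to 781), so the 2 largest clonotypes of 1 liver lay further apart than counting error. Areg, the tissue-repair growth factor amphiregulin, was at 860 CPM in Control 11 clonotype 1 (673 to 1083) and at 18.2 CPM in Control 11 clonotype 3 (2.20 to 65.8). No Areg UMI was found in IFNa 23 clonotype 3 or Combination 22 clonotype 3. Il10, the suppressive cytokine, ranged up to 300 CPM in IFNa 23 clonotype 3 and had no UMI in 4 of the 12, 3 of them those of Combination 22. The intervals of those 3 reached up to 33.3, 59.1 and 92.1 CPM. The single barcodes of Combination 22 were at 5.44 CPM, so these zeros do not set its clonotypes apart from them.

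Among identity genes, Ctla4 ran from 755 to 2867 CPM, Ikzf2 from 757 to 1876 CPM and Il2ra from 286 to 1774 CPM, none with a clonotype at 0, while Nrp1 ran from 0 to 175 CPM with 1 clonotype at 0. The genes with lower values in the summed comparison were low in nearly every large clonotype. Slamf6, Itgb1, Ccr4 and S1pr1, the receptor that carries T cells out of tissue, lay below the single barcodes of their own liver in 12 of 12, and Klf2 in 11 of 12. The exception for Klf2 was Combination 22 clonotype 3 (674 CPM). Tigit, Pdcd1 and Cxcr6, a receptor of tissue-resident T cells, lay below in 2, 2 and 1 of 12. These clonotypes hold much of the expanded arm, so their direction is no separate support.

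**Figure D3:**
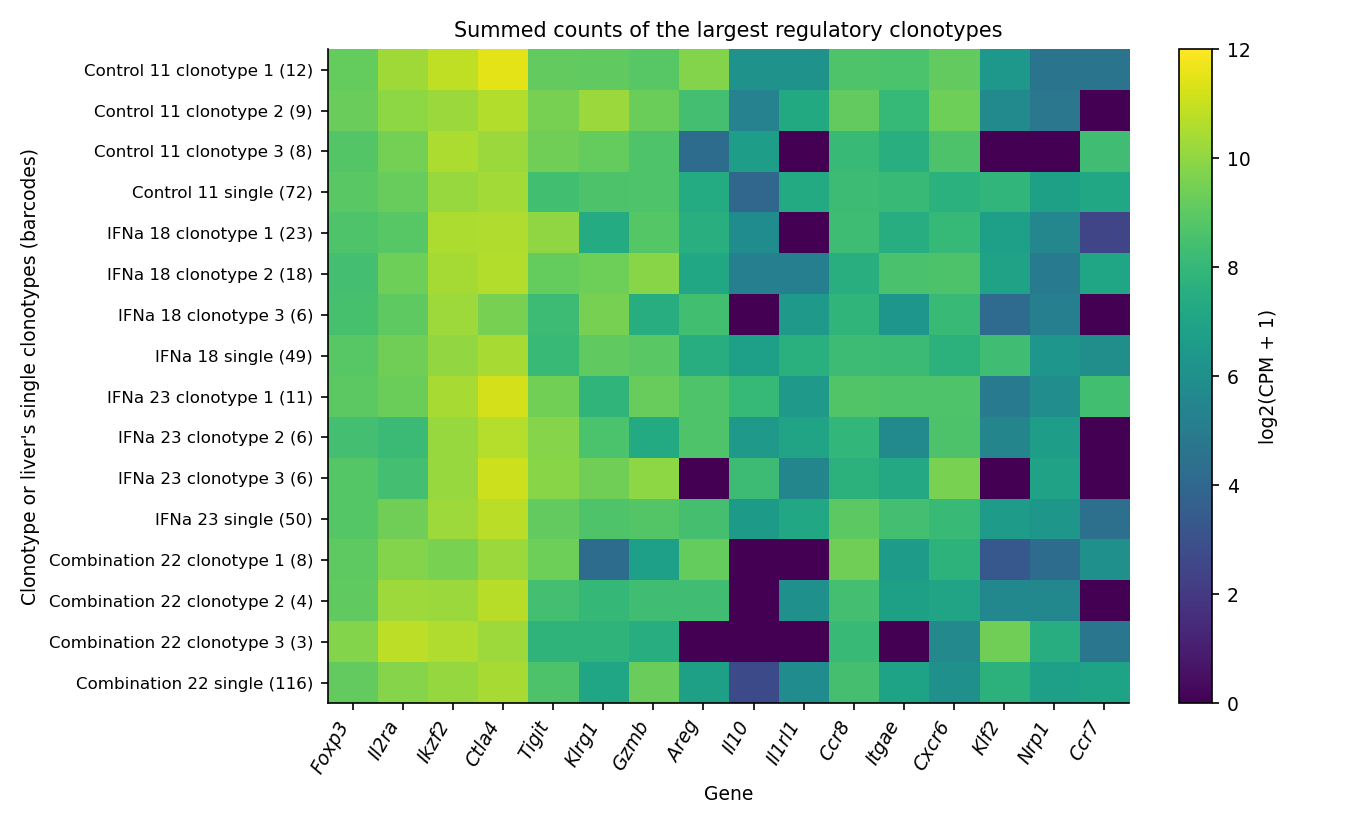
Heat map of log2(CPM + 1) for 16 genes (columns) in the 3 largest regulatory clonotypes of each liver but Control 25 and in that liver's single barcodes (rows, with the number of barcodes). Ikzf2 and Ctla4 are bright in every row, whereas Klrg1, Areg, Il10 and Ccr7 change from row to row within a liver. The exception is Il10 in Combination 22, at 0 CPM in all 3 clonotypes.

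Some regulatory clonotypes also occurred in Foxp3-zero CD4 barcodes. Of the 375 clonotypes 28 did, 15 expanded and 13 single, on 40 Foxp3-zero barcodes (7, 0, 17, 8 and 8 per liver). The share of expanded clonotypes with such a barcode was 13.6, 0, 45.5, 20 and 20%, against 2.78, 0, 8.16, 4 and 4.31% of single clonotypes. Expanded clonotypes were the higher in 4 of 5 livers and Control 25 had none of either kind. The mean difference was 16.0 percentage points (exact two-sided sign-flip permutation test over livers, p = 0.125). With 5 livers this test can reach 0.0625, but Control 25 differed by 0, so 0.125 was the smallest it could give here. A clonotype with more barcodes has more chances to include one without a Foxp3 UMI, and the difference is not corrected for size. IFNa 18 clonotypes 1 and 2, whose sequences are printed above, had 4 and 5 Foxp3-zero barcodes beside their 23 and 18 regulatory ones. A regulatory clonotype was seen in 1 CD8 barcode, in Control 11.

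The Foxp3-zero barcodes that shared a regulatory clonotype were compared with the Foxp3-zero barcodes of the same liver that did not, in 4 livers (Control 25 had none). By edgeR's quasi-likelihood test with the liver as a block, 108 of 6999 genes passed an adjusted p of 0.05, 44 higher (0.629%) and 64 lower (0.914%) in the sharing barcodes. Of these, 30 of the higher and 57 of the lower genes had the same direction in every liver. The arms were unequal: the sharing barcodes held 302579 UMIs in all and the others 8055969. By definition every sharing barcode belonged to a clonotype of 2 or more CD4 barcodes. Of all Foxp3-zero barcodes in these livers, 5.88, 19.3, 40.9 and 49.2% were in expanded clonotypes. Sharing therefore cannot be told apart from clonal expansion here, and the part of expansion was not tested. Of the 17 sharing barcodes of IFNa 18, clonotypes 1 and 2 held 4 and 5. Without the liver block 8 genes passed, all higher. Without Control 11, IFNa 18 or IFNa 23 the count was 31, 43 or 56, and without Combination 22 it was 282, of which 99 were among the 108. The values below are in the order Control 11, IFNa 18, IFNa 23, Combination 22, and changes are on the log2 scale.

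Among regulatory T cell identity genes, of 16 tested, 7 rose (Il2ra, Ikzf2, Ctla4, Tnfrsf4, Izumo1r, Capg and Itgb8) and none fell, with a median log2 fold change of 1.20 against −0.07 over all genes. Ikzf2 was at 1032, 1044, 2071 and 294 CPM in sharing and 148, 222, 154 and 171 CPM in other Foxp3-zero barcodes. The sharing arm was the higher in all 4 livers, most in IFNa 23 and least in Combination 22 (2.45, SE 0.32, adjusted p = 1.06e-06, edgeR's quasi-likelihood test). Ctla4 was at 1439, 895, 1387 and 1116 CPM against 408, 211, 372 and 478 CPM (1.75, SE 0.25). Il2ra was at 109, 338, 787 and 103 CPM against 80.6, 71.6, 88.8 and 61.2 CPM, nearly level in Control 11 and highest in IFNa 23 (1.93, SE 0.35). Capg, an actin-capping protein, rose by 1.29. Tnfrsf4, the costimulatory receptor OX40, rose (1.09, adjusted p = 0.0375, edgeR's quasi-likelihood test) but was lower in Combination 22, at 367 against 521 CPM. Nrp1, an identity gene, had a value of −1.36 (adjusted p = 0.0672) and Tnfrsf18 of 0.86 (adjusted p = 0.127), and neither passed.

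Of effector regulatory T cell genes, 8 of 35 tested rose, with none lower and a median of 0.43. Klrg1 was at 516, 400, 290 and 29.4 CPM in sharing and 44.2, 19.1, 6.96 and 5.64 CPM in other Foxp3-zero barcodes. All sharing arms of the first 3 livers lay far above every other arm, and the 29.4 CPM of Combination 22 correspond to 2 UMIs (4.05, SE 0.39, adjusted p = 6.63e-10, edgeR's quasi-likelihood test). Il10 was at 217, 62.8, 104 and 44.1 CPM against 29.9, 8.35, 12.2 and 2.39 CPM (3.12, SE 0.52). Tigit was at 760, 628, 1056 and 382 CPM against 196, 118, 300 and 282 CPM (1.68). Gzmb, Itgae and Tnfrsf9 rose by 1.55, 2.50 and 1.05, although Gzmb and Itgae were lower in Combination 22. Tnfrsf9 lost its call in 9 of 16 alternatives, Tnfrsf4 in 8 of 16, Itgae in 6 of 15 and Gzmb in 5 of 16.

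Other genes that rose in every liver and stood among the largest changes included Frmd5 (5.32, adjusted p = 6.63e-10, edgeR's quasi-likelihood test), at 407, 173, 228 and 103 CPM against 2.60, 7.16, 7.83 and 2.60 CPM. Rln3, which encodes the peptide relaxin 3, rose by 3.72 and Neb, best known as the muscle thin-filament protein nebulin, by 2.87. Pvrig, an inhibitory receptor, rose by 2.64, the metallothionein Mt1 by 2.56 and Arl5a, a small GTPase, by 2.22. Arl5a, Ctla4, Ikzf2 and Klrg1 kept their call under each of 16 alternatives that could be run, and Frmd5 under each of 14. Among these alternatives, a minimum of 3 barcodes per arm and clonotypes defined by amino acid CDR3 gave the main fit again.

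Many resting T cell genes fell. Of 20 tested, 10 passed as lower (Ccr7, Tcf7, Lef1, Bach2, Satb1, Bcl2, Igfbp4, Ly6c1, Rflnb and Actn1), none as higher, and the median was −1.46. Tcf7, the transcription factor TCF-1 of naive and memory T cells, was at 109, 7.85, 0 and 235 CPM in sharing and 767, 557, 294 and 299 CPM in other Foxp3-zero barcodes. The arms lay far apart in the first 3 livers and close in Combination 22 (−2.63, SE 0.47, adjusted p = 0.000386, edgeR's quasi-likelihood test). Lef1 and Satb1, 2 more transcription factors of naive T cells, fell by 2.29 and 2.33, and Ccr7 by 1.81. Igfbp4 had no UMI in any sharing arm and was at 932, 352, 108 and 77.6 CPM in the others. Against a floor of 3 UMIs over all sharing barcodes it was at least 18.7-fold lower. Ly6c1 (at least 3.77-fold) and the mitotic gene Ube2c (at least 5.12-fold) likewise had no UMI in the sharing barcodes.

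Some genes of conventional effector T cells fell as well. Ifng, the interferon of Th1 cells, was at 0, 0, 0 and 29.4 CPM in sharing and 41.6, 162, 315 and 240 CPM in other Foxp3-zero barcodes (−4.72, SE 0.65, adjusted p = 4.59e-06, edgeR's quasi-likelihood test). Of 13 tested Th1 and cytotoxic genes Ifng and Ccl3 fell and Gzmb rose. The chemokine Xcl1 fell by 4.56, and the NK-type receptor genes Klrd1 and Klrc1 changed by −4.16 and −2.82. Penk, which encodes enkephalin and was listed as a tissue-repair regulatory T cell gene, fell by 2.22. Of 12 tested tissue-repair genes, 2 passed as higher (Klrg1 and Il10) and 1 as lower (Penk), with a median of −0.02. None of 39 interferon response genes passed in either direction. At an unadjusted p under 0.05 by the same edgeR test, 5 were higher and none lower, with a median of 0.23. Over all genes of this comparison 647 of 6999 reached that threshold, higher or lower, the count to set beside these 5 of 39.

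**Figure D4:**
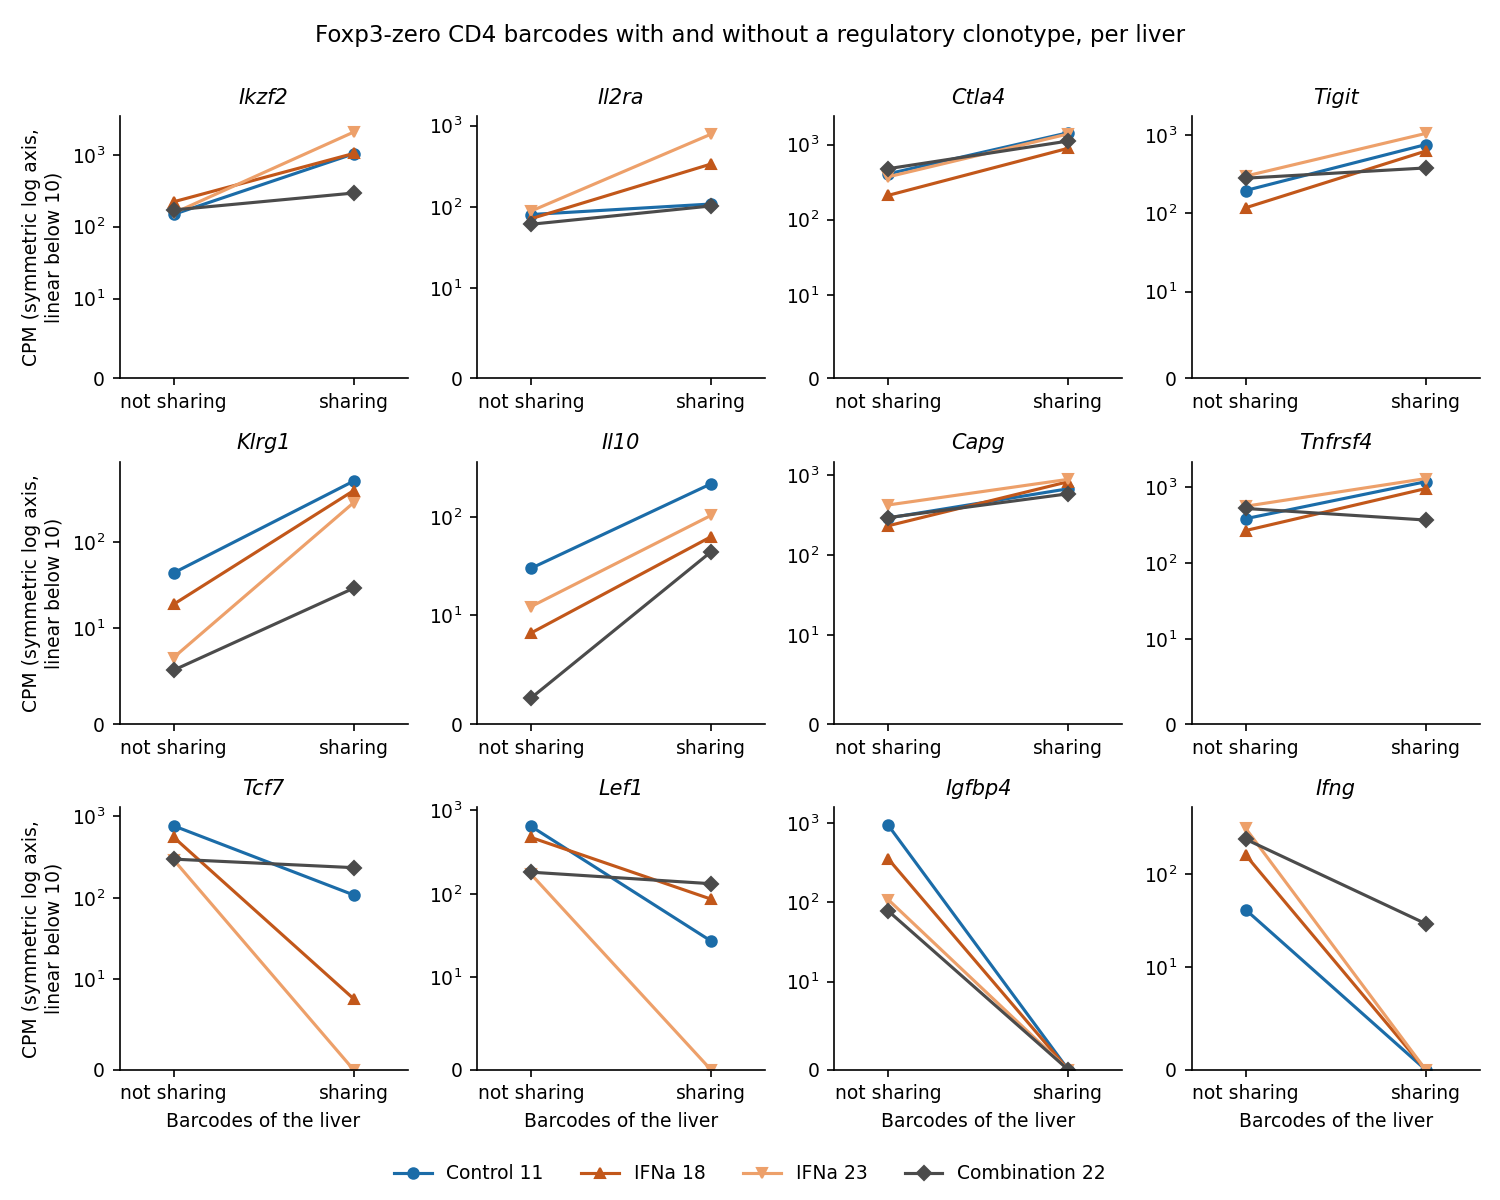
CPM of 12 genes in Foxp3-zero CD4 barcodes without (not sharing) and with (sharing) a regulatory clonotype, 1 line per liver joining its 2 summed arms, on a symmetric log axis that is linear below 10 CPM. The first 7 genes rise in all 4 livers, Tnfrsf4 rises in 3, and the 4 genes of the bottom row fall in all 4, least in Combination 22 for Tcf7 and Lef1.

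Several other measures moved with the sharing barcodes. Their median depth was 3147, 6164, 4951 and 7773 UMIs against 5242, 5168, 6614.5 and 6335.5 in other Foxp3-zero barcodes, lower in Control 11 and IFNa 23 and higher in IFNa 18 and Combination 22. B cell genes Cd79a and Cd79b rose, and the 7 B and plasma cell markers summed to 28.1 to 3178 CPM against 57.0 to 323 CPM. Of 278 such UMIs in Combination 22, 277 came from 1 barcode of 8, and of 54 in IFNa 18, 51 came from 1 of 17. The myeloid gene Cst3 and the red cell gene Hbb-bs fell, and the dissociation gene Fos rose (1.19). The 8 myeloid markers summed to 206 to 3456 CPM in sharing and 1395 to 2441 CPM in the other barcodes of the same 4 livers. With scored doublets removed 91 genes passed, 66 of them among the 108. Whether the sharing barcodes lack Foxp3 or hold it below detection was not tested.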

How the data were processed

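Gene expression and receptor libraries of 5 livers were joined by the sample number in their labels. The deposited expression matrices are unnormalized UMI counts (genes by barcodes), and the deposited contig tables give read and UMI counts of each receptor contig. The submitters' processing notes name Cell Ranger 7.0.1 and mm10. Barcodes with fewer than 200 genes or over 15% mitochondrial UMIs were left out, which removed no regulatory barcode. Doublets were kept, as the rule keeps them, and scored per library from simulated doublets (0.8% per 1000 barcodes, scikit-learn 1.9.0) for an alternative. All listed contigs were productive.

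Counts were summed per liver and arm (at least 5 barcodes in each arm) and tested with edgeR 4.0.16 in R 4.3.3 (filterByExpr, TMM, quasi-likelihood F test, liver as block, Benjamini-Hochberg, threshold 0.05). The blocking comes from the design, since both arms are cells of 1 liver. CPM in these comparisons use TMM-scaled totals, and CPM in the marker check and of single clonotypes use raw totals. The 260 receptor segment genes were left out of the fits, and Foxp3, Cd4 and Cd8a, which the rule used, are described without a test, although Foxp3 and Cd4 were among the genes fitted. The standard error of a log2 fold change is its size divided by the root of its F statistic. DESeq2 1.42.0 served as an alternative. Exact permutation tests were enumerated in Python 3.11.15 with numpy 2.4.6, and Clopper-Pearson intervals used scipy 1.17.1. On simulated counts the expanded comparison (7646 genes) recovered 54% of genes changed 2-fold and 92% changed 4-fold, and the sharing comparison (7040 genes) 12% and 68%. Unchanged genes made up 2.67 and 3.61% of the calls. All genes were drawn with 1 fixed spread that was not estimated from these data. Each changed gene had the same fold change in every liver, so the recovery holds for that setting only.

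Named genes were up to 12 each way with the largest change past the threshold, at least 20 CPM and 1 direction in every liver, failing that the 6 each way with the smallest p, plus up to 4 per gene list and a fixed set of 30. The expanded comparison, with no gene past the threshold, used the smallest p. Clonotypes named were the 3 largest per liver, and those in the beta families. The beta families were chosen after their values were seen. The members, gene lists and markers were chosen with earlier results of these data known. Some named genes are not reported here.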

Additional observations from a re-analysis of the deposited data

Results flagged for a closer look

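Combination 22 was the only one of the 5 livers in which regulatory barcodes were less often in expanded clonotypes than Foxp3-zero CD4 barcodes (−28.1 percentage points, against differences above 0 in both Control and both IFNa livers). At 22 barcodes of each population the difference was −1.09 points. The combination is 1 liver, and the difference from the other groups was not tested.

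In the comparison of Foxp3-zero barcodes with and without a regulatory clonotype, 7 called genes had 1 treatment group on the opposite side from the rest, and none of these differences between groups was tested. In Combination 22, sharing minus other barcodes was −154 CPM for Tnfrsf4, −63.4 CPM for Gzmb and −12.8 CPM for Itgae, while all 3 genes were higher in the sharing barcodes of Control 11, IFNa 18 and IFNa 23. In Control 11 the difference was 19.4 CPM for Ccl3, −11.9 CPM for Cd79a, −18.2 CPM for Cd79b and 15.3 CPM for Hbb-bs, each of the opposite sign to the other 3 livers. The sharing arms held 7 barcodes in Control 11 and 8 in Combination 22, where 1 UMI is worth 27.2 and 14.7 CPM, so the differences of 19.4, −11.9, −18.2 and 15.3 CPM in Control 11 and −12.8 CPM in Combination 22 are smaller than the worth of 1 UMI.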

How the results depend on the processing

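For expanded against single regulatory clonotypes, 0 genes passed in the main fit, 2 with DESeq2 and 136 without a low-count filter. With scored doublets removed 23 passed, and 17 with expanded set at 3 or more barcodes. A minimum of 10 barcodes per arm left out Control 25 alone, the same fit as without that liver, and gave 11. Leaving out 1 liver gave 0 to 11. The other alternatives gave 0, including no replicate block and, chosen after seeing the data, a clonotype defined by the beta chain alone. For the interaction with IFNa, 53 genes passed without a low-count filter and 0 to 57 with 1 liver left out. The 108 genes of the sharing comparison became 8 without the replicate block, 50 with DESeq2, 235 without a filter, 62 with Foxp3 of 2 or more UMIs, 67 with the beta chain alone and 31 to 282 with 1 liver left out. With DESeq2 size factors in edgeR 100 passed, 50 higher and 50 lower, against 44 and 64. The difference in expanded share between treatments ranged from −5.89 to 17.2 points with 1 liver left out, negative without Control 25 (−5.89), IFNa 18 (−1.13) and IFNa 23 (−3.87). That in shared clonotypes ranged from 10.6 to 19.96 points.

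Some expanded-against-single log2 fold changes near 0 changed sign. Il2ra became −0.047 with at least 10 barcodes per arm, −0.0621 with doublets removed and −0.121 with clone size over all CD4 barcodes, and ran from −0.047 to 0.111 with 1 liver left out. Ikzf2 became −0.0268 with Foxp3 of 2 or more UMIs and −0.0396 with clone size over all CD4 barcodes, and ran from −0.0234 to 0.146. Klrg1 became 0.0185 without the largest clonotype and ran from −0.267 to 0.052. Mki67 became −0.504 with at least 10 barcodes per arm, −0.0134 with doublets removed, −0.118 without multi-chain barcodes, −0.0197 with the beta chain alone, −0.374 at 3 or more barcodes and −0.0262 with clone size over all CD4 barcodes, and ran from −0.504 to 0.392. In the sharing comparison Hbb-bs became 0.0243 with the beta chain alone. The cause of these changes was not tested. Of the printed genes' other values in the sharing comparison, 465 stayed on the same side of the threshold, 105 lost a call and 3 gained one. In the expanded comparison 541 stayed uncalled and 48 gained a call. The values that stayed include those of alternatives that gave the main fit again.

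The sharing comparison with at least 10 barcodes per arm could not be fitted, since 1 liver reached it, and a run with all contigs was not made because every contig was productive. Depth limits most the sharing arms and Control 25.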
